A study of Mus musculus with 1115 samples.

Results

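Cadherins and protocadherins are the cell surface adhesion proteins described here, across single cells of the embryonic mouse cerebral cortex. The members are the genes of the deposited count table whose symbol begins with Pcdh or with Cdh and a number, and that had a read in at least 5 cells. Of 73 matching symbols among 16839 genes, 59 met that minimum: 11 classical cadherins, 1 other cadherin (Cdh13), 37 clustered protocadherins and 10 other protocadherins. The 14 symbols below the minimum were 12 clustered protocadherins, Cdh23 and Cdh5, the cadherin of endothelium, which had a read in 3 cells. The epithelial cadherin Cdh1 was not analysed here. The 59 members together took 0.133% of all counts.

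The tissue was cerebral cortex, taken on embryonic day 13.5 from wild type C57BL/6 mice. The labels give all cells the genotype CAG-mRFP;Hes5p-GFP, because the cortex had been electroporated in utero with a plasmid carrying mRFP behind the broadly active CAG promoter and GFP behind the Hes5 promoter, a target of Notch signalling in radial glia. Sorting gave mRFP+GFP- cells, the CAG_mRFP group (34.44% of 1115 cells), and mRFP+GFP+ cells, the Hes5_GFP group (65.56%), so both groups had been electroporated and no unelectroporated cell was included. Every sample was 1 cell, read with a modified Smart-seq 2 protocol, which covers whole transcripts and has no molecular identifiers. The authors' cell table assigned 57.04% of the cells to radial glial cells (RGC), 17.13% to intermediate progenitor cells (IPC) and 25.83% to excitatory neurons (EN). It also gave 8 clusters, a cell cycle phase, a sort date and a date of library preparation, which was not used here. A reporter that is bright or dim in a cell reports promoter activity with the delay of GFP turnover, and the labels name no embryo or litter. The 4 main sort dates (here day 1 to day 4, with 50 and 78 cells and then 43.77% and 44.48% of all cells) therefore served as replicates, and the p-values measure only the spread between those days.

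Classical cadherins bind the same cadherin on a neighbouring cell through their outermost repeat and connect through catenins to actin. Type I members such as Cdh2 (N-cadherin) form the adherens junction belt at the ventricular surface, where radial glia are anchored, and type II members mark subsets of neurons and cortical areas. Clustered protocadherins are encoded in 3 neighbouring gene clusters (Pcdha, Pcdhb and Pcdhg) on mouse chromosome 18, in which each variable exon has its own promoter and a cell uses a few of them, giving neurons a combinatorial surface identity. The other protocadherins, grouped as delta-1 and delta-2, have solitary genes and regulate cell sorting, axon growth and, through the WAVE complex, actin.

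Median counts per cell were 256329 in RGCs, 334718 in IPCs and 240326 in ENs, with medians of 3534, 3507 and 2659 genes. Summed marker levels followed the class names: the radial glia list came to 6745 CPM, the normalised read count, in RGCs and 405.1 in ENs, and the neuron list to 410.4 and 9338. The Cajal-Retzius list, of which 3 of 7 genes were in the table, was at 126.3 CPM in ENs (77.5 to 245.4 over days) against 0.646 in RGCs. The endothelial list was at 17.1 CPM in RGCs (0.233 to 46.2 over days) and 0.0997 in ENs, where Cldn5, Pecam1, Kdr and Tek were at 0. The part these cells had in the levels below was not tested. The authors' cluster 7, 72 cells of which 71 were RGCs, had a median of 97172 counts and 1168 genes, and values without it are given where they differ. Because the classes and clusters were made from the expression of these same cells, differences between them are given as descriptions with no test. Fewer cells using a gene and less RNA per cell cannot be told apart in summed levels, so shares of cells are given too.

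Of the 59 members, 46 reached 5 CPM in a class, and 31 of these 46 were highest in ENs, 8 in IPCs and 7 in RGCs. Over all 10896 genes past the same minimum the corresponding shares were 37.5% in ENs, 23.1% in IPCs and 39.5% in RGCs, against 67.4%, 17.4% and 15.2% of the members. The minimum applies to the highest class, so a sparse gene can pass only through the class it is then counted under. This bears on all shares in this paragraph and on the counts and median ratios by family below. Counts with a minimum of 20 CPM are given in the last section, without the share over all genes. At least 2-fold higher in ENs than in RGCs with no overlap between days were 12 members (26.1%), against 9.47% of all genes. In the other direction there were 2 members, Pcdh19 and Cdh6 (4.35%), against 13.7% of all genes. The lowest class was the RGC for 26 of the 46 members, the IPC for 17 and the EN for 3, or 56.5%, 36.96% and 6.52%, against 28.6%, 31.6% and 39.8% of all genes. Of the 26 lowest in RGCs, 18 were clustered protocadherins. The 13 members named below had at least 20 CPM in a class and a read in at least 10% of its cells. Of those 13, 4 were lowest in RGCs, 8 in IPCs and 1 in ENs, where 30.1%, 28.2% and 41.7% of all 7814 genes past that minimum were.

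**Figure D1:**
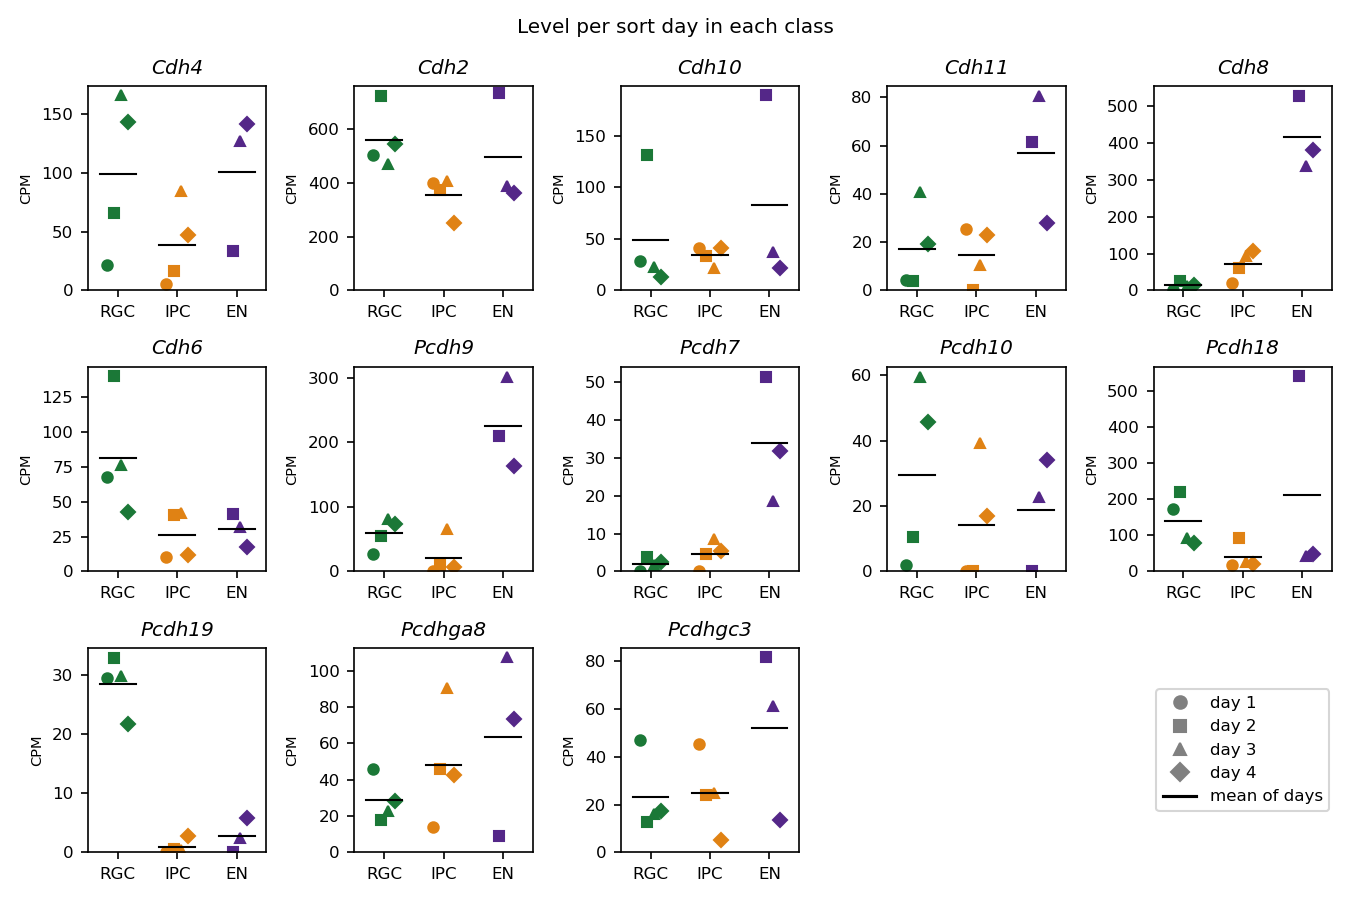
Level (CPM, counts summed over the cells of a class on a sort day) of the 13 named members in RGCs, IPCs and ENs; each symbol is a sort day and the bar the mean of days. The EN days of Cdh8, between 338.6 and 529.04 CPM, lie above every RGC and IPC day, and the RGC days of Pcdh19, between 21.6 and 32.8 CPM, above every other day.

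The type I cadherin Cdh2 was the most abundant member per length in every class, at 65.2 CPM per kb of exon in RGCs, 41.7 in IPCs and 55.3 in ENs. Its RGC level was 505.1, 722.3, 468.7 and 545.04 CPM on days 1 to 4. In IPCs it was 398.1, 372.8, 406.4 and 249.8 CPM, below every RGC day, and in ENs 736, 387.7 and 362.5 CPM on days 2 to 4, overlapping both. N-cadherin was thus high in all 3 classes, and 84.9% of RGCs, 71.7% of IPCs and 78.1% of ENs had a read. Retinal cadherin Cdh4, the other type I member, spread more over days: 22.01, 66.2, 166.2 and 143.7 CPM in RGCs and 33.6, 126.9 and 142.2 CPM in ENs on days 2 to 4, with full overlap. In IPCs Cdh4 was at 5.30, 16.2, 84.6 and 47.2 CPM, below the RGC value of the same day on each of the 4 days. Cdh4 reads were found in 41.7% of RGCs, 23.04% of IPCs and 29.9% of ENs.

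The type II cadherin Cdh8, a marker of subsets of cortical neurons and areas, differed most between the classes among the named members. ENs had 529.04, 338.6 and 382.3 CPM on days 2 to 4. IPCs had 19.01, 61.6, 93.9 and 107.2 CPM, and RGCs 0.0694, 25.9, 13.3 and 15.97 CPM, so that the EN days overlapped neither of the other classes. On the summed counts ENs were 28.6-fold above RGCs, 4.74 on the log2 scale with a prior of 1 CPM. The share of cells with a read was 7.704% of RGCs (95% exact binomial interval 5.75 to 10.1), 26.7% of IPCs (20.6 to 33.6) and 59.4% of ENs (53.5 to 65.1). After thinning each cell to 50000 reads these shares were 6.75%, 23.7% and 54.6%. Among cells with a read the median level also differed, at 104.9 CPM in RGCs, 285.5 in IPCs and 545.6 in ENs. Within the Hes5_GFP group alone Cdh8 was at 12.7, 71.8 and 361.7 CPM in RGCs, IPCs and ENs, and within the CAG_mRFP group at 21.5, 101.8 and 394.5 CPM. Per length Cdh8 reached 50.3 CPM per kb in ENs, next to the 55.3 of Cdh2, but was at 1.76 in RGCs.

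Cdh6, a type II cadherin that marks parts of the early cortex, had the opposite order. RGCs had 67.3, 139.9, 75.96 and 42.5 CPM on days 1 to 4. The EN values of 41.3, 31.8 and 17.2 CPM were all below the lowest RGC day. In Hes5_GFP cells alone Cdh6 was at 66.9 CPM in RGCs and 3.05 in ENs, and in CAG_mRFP cells alone at 60.9 and 29.1 CPM, so that the EN against RGC log2 ratio of -1.37 was -4.07 in Hes5_GFP cells and -0.90 at its smallest over the alternatives tried. Cdh6 reads were found in 25% of RGCs, 13.6% of IPCs and 13.9% of ENs. Cdh10 and Cdh11, both type II cadherins, were summed to 57.5 and 47.4 CPM in ENs against 28.4 and 23.9 in RGCs, with days that overlapped. For Cdh10 a single RGC of day 2 held 38.6% of all Cdh10 reads in RGCs, and a single EN of that day held 35.02% of those in ENs. Without the respective cell the levels were 17.5 and 37.6 CPM. The shares of cells with a Cdh10 read were 9.91% of RGCs, 10.99% of IPCs and 9.38% of ENs.

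The remaining 5 classical cadherins were below 20 CPM in every class or had a read in fewer than 10% of cells. Of those, Cdh7 was one of the members higher in ENs on all days, at 13.996 CPM against 2.26 in RGCs, with a read in 4.17% of ENs. In CAG_mRFP cells alone Cdh7 was at 16.2 CPM in ENs and 3.43 in RGCs. In Hes5_GFP cells alone it was at 2.06 and 2.13 CPM, with a read in 1 EN, so the higher EN level was seen in CAG_mRFP cells only. Cdh7 is named, like Cdh13 and Pcdh20 below, after its values were seen. The median EN against RGC log2 ratio over the 9 classical cadherins past 5 CPM was 0.96, against -0.11 over all genes. This median turned to -0.08 in Hes5_GFP cells alone and was 1.87 in CAG_mRFP cells alone, so its sign depends on which cells enter. The 2 type I members had a median of -0.19 and the 7 type II members of 0.99. The glycosylphosphatidylinositol-anchored Cdh13 (T-cadherin) was summed to 20.9 CPM in ENs and 2.31 in RGCs, with reads in 5.21% of ENs.

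To show what lies before the genes at the extremes, promoter windows of the named members furthest apart between the classes are printed, 2 that were higher in ENs (Cdh8 and Pcdh7) and 2 that were higher in RGCs (Cdh6 and Pcdh19). The sequences are from RefSeq on GRCm38.p6, 250 bases before to 50 bases after an annotated start, written 5′ to 3′ on the gene's strand: Cdh8 at chr8:99416422-99416721 on the minus strand, Pcdh7 at chr5:57717831-57718130 on the plus strand, Cdh6 at chr15:13173626-13173925 on the minus strand and Pcdh19 at chrX:133688944-133689243 on the minus strand. Capitals mark each match to the E-box CANNTG, the letters bound by basic helix-loop-helix factors, which reads the same class of letters on both strands.
Cdh8: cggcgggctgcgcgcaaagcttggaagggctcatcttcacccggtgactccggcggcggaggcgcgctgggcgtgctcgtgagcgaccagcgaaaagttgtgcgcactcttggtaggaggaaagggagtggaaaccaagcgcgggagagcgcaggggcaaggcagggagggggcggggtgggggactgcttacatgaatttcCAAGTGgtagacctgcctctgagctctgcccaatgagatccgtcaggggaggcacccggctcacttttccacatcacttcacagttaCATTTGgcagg
Pcdh7: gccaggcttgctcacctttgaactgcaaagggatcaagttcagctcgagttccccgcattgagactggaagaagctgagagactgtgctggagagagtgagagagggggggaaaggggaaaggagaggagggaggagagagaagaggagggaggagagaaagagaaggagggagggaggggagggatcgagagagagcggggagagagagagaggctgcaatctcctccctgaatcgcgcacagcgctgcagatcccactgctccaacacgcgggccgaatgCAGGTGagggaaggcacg
Cdh6: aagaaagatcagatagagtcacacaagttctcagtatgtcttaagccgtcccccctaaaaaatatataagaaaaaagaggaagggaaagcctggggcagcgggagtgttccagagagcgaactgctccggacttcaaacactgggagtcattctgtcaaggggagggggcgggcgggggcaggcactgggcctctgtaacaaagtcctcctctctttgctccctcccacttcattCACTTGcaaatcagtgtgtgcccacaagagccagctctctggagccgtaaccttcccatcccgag
Pcdh19: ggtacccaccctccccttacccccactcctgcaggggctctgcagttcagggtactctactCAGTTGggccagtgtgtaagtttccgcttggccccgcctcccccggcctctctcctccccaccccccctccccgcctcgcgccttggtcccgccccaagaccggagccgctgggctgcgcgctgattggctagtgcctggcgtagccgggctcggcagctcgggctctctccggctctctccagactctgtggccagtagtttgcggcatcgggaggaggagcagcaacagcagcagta
Cdh8 held 2 E-box matches and the other windows 1 each. Of all 32851 promoter windows of that length in the table, 72.3% held a match, against 60% of the 20 windows of the 17 members with an entry. The core bound by the Notch effector RBPJ, TGGGAA on either strand, was in the Cdh6 window and in none of the other windows printed. It was in 35% of member windows and 25.6% of all windows. The SOX core ACAAT, on either strand, was in none of the windows printed, in 15% of member windows and in 31.02% of all windows. These are letter matches and describe the windows only. The gene bodies lie at chr8:99024471-99416471 for Cdh8, chr5:57717967-58133230 for Pcdh7, chr15:13028701-13173675 for Cdh6 and chrX:133582860-133688987 for Pcdh19, all protein coding in GENCODE M21.

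Among the other protocadherins, the delta-1 members Pcdh7 and Pcdh9 were higher in ENs. Pcdh9 had 26.94, 55.55, 81.6 and 73.9 CPM in RGCs on days 1 to 4. In IPCs it had 0, 9.73, 66.2 and 7.35 CPM. In ENs it had 210.3, 301.7 and 163.1 CPM on days 2 to 4, above every day of both other classes. Reads were found in 26.4% of RGCs (23.03 to 30.02), 8.90% of IPCs (5.27 to 13.9) and 36.8% of ENs (31.2 to 42.7). These intervals cover counting error over cells only, and by level the IPC days overlapped the RGC days. Pcdh7 was highest in ENs, with 51.4, 18.7 and 31.7 CPM on days 2 to 4 against at most 3.87 in RGCs and 8.602 in IPCs on any day. Only 10.8% of ENs had a Pcdh7 read, and 65.5% of the Pcdh7 reads in ENs came from 5 cells. Pcdh20, outside the delta groups, had 18.7 CPM in ENs from 6 cells with a read, against 0.340 CPM in RGCs.

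The delta-2 protocadherins were mixed, with a median EN against RGC log2 ratio of -0.77 over 5 genes against 1.57 over the 3 delta-1 genes. Pcdh19, the X-linked delta-2 protocadherin that associates with Cdh2, was highest in RGCs. RGCs had 29.4, 32.8, 29.7 and 21.6 CPM on days 1 to 4, a spread (SD) of 4.79 CPM around a mean of 28.4. IPCs had 0, 0.503, 0.344 and 2.84 CPM and ENs 0, 2.36 and 5.75 CPM on days 2 to 4. RGCs were 20.3-fold above IPCs and 7.44-fold above ENs on the summed counts, and 11.95% of RGCs, 3.14% of IPCs and 2.08% of ENs had a read. In ENs a single cell held 63.7% of the Pcdh19 reads.

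Pcdh10 had 1.94, 10.5, 59.6 and 45.8 CPM in RGCs, a range as wide as any difference between the classes, and reads in 29.9% of RGCs, 17.8% of IPCs and 17.7% of ENs. Pcdh18 had 174.01, 220.3, 91.5 and 78.7 CPM in RGCs and 18.3, 91.7, 26.6 and 20.97 CPM in IPCs. In ENs it was 541.7 CPM on day 2, from 18 cells, and 43.5 and 47.97 on days 3 and 4. A single EN of day 2 held 38.3% of all Pcdh18 reads in ENs, and 5 cells held 73.1%. The Pcdh18 EN against RGC log2 ratio of 0.38 became -1.12 without day 2 and -0.29 without that cell. In Hes5_GFP cells alone it was -3.31, from 111.5 CPM in RGCs and 10.36 in ENs, and in CAG_mRFP cells alone 1.03, from 80.3 and 165.02 CPM, so that its sign depends on which cells enter. The share of cells with a read gave the order RGC 35.4%, IPC 18.8% and EN 15.3%. Some other protocadherin was read in 69.97% of RGCs (66.2 to 73.5), 48.2% of IPCs (40.9 to 55.5) and 64.6% of ENs (58.8 to 70.1). The RGC share includes cluster 7, with one in 31.9% of its cells, while clusters 0, 1 and 3 had one in 80.1%, 68.8% and 80.8%.

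**Figure D2:**
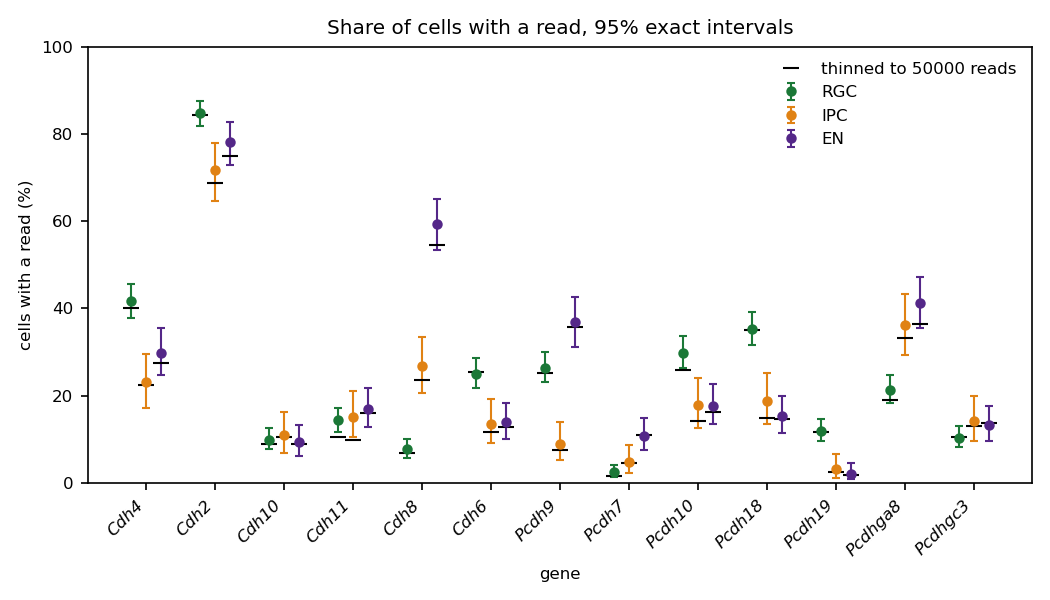
Share of cells with a read (percent, y axis) of the 13 named members (x axis) in RGCs, IPCs and ENs; bars are 95% exact binomial intervals and black dashes the share after thinning to 50000 reads. Of the 13 members, 6 had the highest share in RGCs, 5 in ENs and 2 in IPCs, and Cdh8 rose from 7.704% of RGCs to 59.4% of ENs.

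Clustered protocadherins were read in more cells, and in more genes per cell, from RGCs to ENs. At least 1 of the 37 was read in 49.2% of RGCs (45.3 to 53.2), 67.5% of IPCs (60.4 to 74.1) and 78.8% of ENs (73.6 to 83.4). The mean number of clustered genes with a read was 0.780 per RGC, 1.36 per IPC and 1.57 per EN, and 0.715, 1.23 and 1.498 after thinning to 50000 reads, which left out 70 RGCs, 13 IPCs and 40 ENs. No cell had reads of more than 6. At least 3 clustered genes were read in 37 RGCs, 33 IPCs and 60 ENs. The median of total genes per cell was 3534 in RGCs, 3507 in IPCs and 2659 in ENs. Any part of total genes per cell in the clustered counts was not tested. Without cluster 7, in which 18.1% of 72 cells had a clustered gene, the RGC clusters 0, 1 and 3 had one in 50.9%, 57.8% and 53.6% of cells.

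The summed level of the 37 genes was 246.9, 125.7, 109.9 and 113.3 CPM in RGCs on days 1 to 4, 285.9, 315.8, 290.98 and 146.8 in IPCs and 427.3, 575.8 and 305.2 in ENs on days 2 to 4. Every EN day was above every RGC day, while the IPC days overlapped both. Of the 27 clustered members past 5 CPM, 19 were highest in ENs, 7 in IPCs and 1 in RGCs, with a median EN against RGC log2 ratio of 1.36. The Pcdhg cluster carried most of the signal, at 117.8 CPM in RGCs, 189.7 in IPCs and 344.4 in ENs. The Pcdha cluster was at 8.93, 17.1 and 36.2 CPM. The Pcdhb cluster was at 4.61, 32.5 and 23.8 CPM, and its IPC days of 17.1 to 59.4 CPM overlapped the EN days of 3.20 to 31.2. The mean number of Pcdhb genes per cell after thinning was 0.0975 in IPCs and 0.102 in ENs. Of its 6 members past 5 CPM, 4 had their highest sum in IPCs, from reads in 3 to 5 IPCs each.

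Counts of single Pcdha and Pcdhg genes are uncertain, because the genes of a cluster share their 3′ constant exons. In GENCODE M21 between 48.6% and 91.4% of the exon bases of the 7 Pcdha members, and between 31.5% and 66.8% of those of the 21 Pcdhg members, lie in another gene on the same strand, against 0 to 9.67% for Pcdhb. Pcdhga8 and Pcdhgc3 were the clustered members past the naming minimum. Pcdhga8 had reads in 21.4% of RGCs, 36.1% of IPCs and 41.3% of ENs, with days that overlapped between the classes. Pcdhgc3, a C-type isoform, had reads in 10.4%, 14.1% and 13.2% of the cells. Without Pcdhga8, at least 1 other Pcdhg gene was still read in 35.7% of RGCs, 48.2% of IPCs and 54.2% of ENs.

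**Figure D3:**
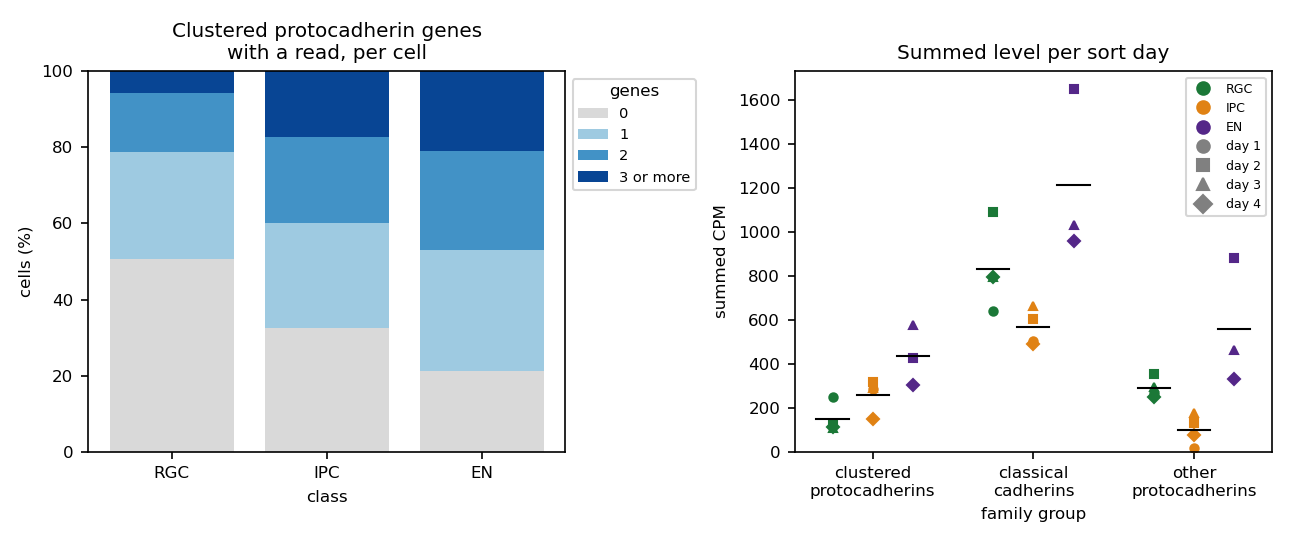
Left, cells of each class (percent) with reads of 0, 1, 2 or at least 3 clustered protocadherin genes; right, summed CPM of each family group by class, each symbol a sort day and the bar the mean of days. The clustered sum rises from 109.9 to 246.9 CPM in RGCs to 305.2 to 575.8 CPM in ENs, and the IPC days of the other protocadherins, at least 18.4 CPM, lie below every RGC and EN day.

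The authors' clusters, each given here under the class of most of its cells, differed in a few members. They do not follow the classes exactly, since cluster 6, mostly IPCs, held 18 ENs and 4 RGCs, and cluster 2, mostly ENs, held 13 RGCs. The EN clusters are 2 and 5, with 15.16% and 10.49% of all cells. Cluster 5 had 267.6 CPM of Pcdh9 against 167.9 in cluster 2, and reads in 48.7% against 29.6% of cells. Pcdh18 was at 262.3 CPM in cluster 5 (94.6 to 621.1 over 3 days) and 31.8 in cluster 2 (14.3 to 18.8 over 2 days), with reads in 28.2% and 6.51% of cells. Cdh13 was at 44.1 CPM in cluster 5 (22.9 to 57.1) and 0.0932 in cluster 2, while Cdh11 was at 23.1 and 76.04 CPM with days that overlapped. Cdh8 was high in both, at 363.7 and 440.9 CPM. The Cajal-Retzius list was at 145.7 CPM in cluster 5, where its member Ebf3 was at 0, and at 115.8 in cluster 2.

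Among RGC clusters, Cdh2 was read in 95.1%, 90.95% and 92% of cells of clusters 0, 1 and 3 and in 27.8% of cluster 7. Pcdh9 was at 47.1, 70.6 and 120.3 CPM in clusters 0, 1 and 3, with days that overlapped. Cluster 7 had 116.7 CPM of Pcdh10 although only 12.5% of its cells had a Pcdh10 read. Cluster 7 also had an erythroid list at 138.3 CPM (0.87 to 9.01 in the other clusters), a meningeal list at 47.4 CPM (0.02 to 10.04) and a cortical hem and choroid plexus list at 28.96 CPM (0.07 to 1.24). Only 4 of 6 meningeal and 3 of 6 hem genes were in the table. In cluster 7 the meningeal Col3a1 and Dcn, the hem gene Lmx1a and the erythroid Alas2 were at 0. Its intermediate progenitor list was at 1385.5 CPM, against 147.5 to 356.7 in clusters 0, 1 and 3, and its radial glia list at 4784.7 CPM. These sums pool the cells of all days. On the only sort day with at least 10 cluster 7 cells, its erythroid list was at 2.72 CPM and its meningeal and hem lists at 0. On that day its intermediate progenitor list was at 550.5 CPM and its radial glia list at 6717.2 CPM. Whether cluster 7 held cells of these other types, and any part of them in its Pcdh10 level, was not tested. Of the IPC clusters, 4 and 6, cluster 4 had 90.9 CPM of Cdh8 and cluster 6 had 76.6. Pcdh7 was at 7.99 CPM in cluster 4 (7.24 to 11.3 over days) and 0.543 in cluster 6 (0 to 2.32).

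**Figure D4:**
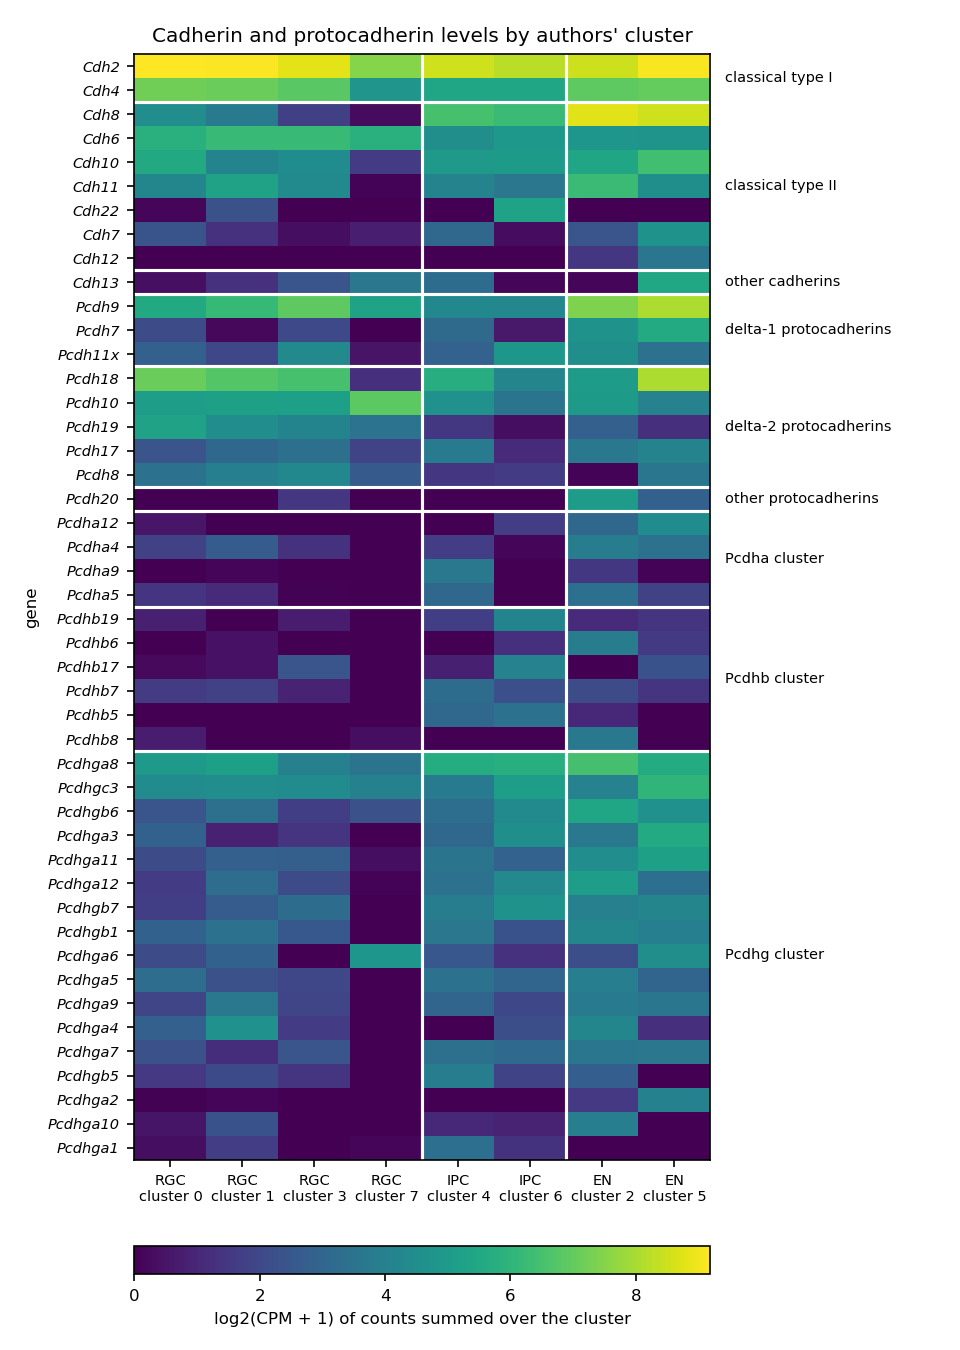
Level, log2(CPM + 1) of counts summed over each authors' cluster (columns, grouped by class), of the 46 members past 5 CPM (rows, grouped by family). Cdh2 is bright in every column with cluster 7 the dimmest at 181.6 CPM, Cdh8 in the 2 EN columns with 363.7 and 440.9 CPM, and Pcdh18 in EN cluster 5 with 262.3 CPM.

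The Hes5 reporter contrast asks whether cells with an active Hes5 promoter differ in these genes. Over all cells and 4 days, edgeR's quasi-likelihood test with day as a block called 0 of 35 members tested at an adjusted p of 0.05, where 0.0571% of 10517 genes were called higher and 0.342% lower in Hes5_GFP cells. Unadjusted p was under 0.05 for 3 of these members, against 13.6% of all genes. DESeq2 called 1 member higher and 5 lower, where it called 5.43% of all genes higher and 5.63% lower. The groups differ in makeup, since ENs from CAG_mRFP made up 21.79% of all 1115 cells against 4.036% from Hes5_GFP, and RGCs 6.457% against 50.58%. The Cajal-Retzius list was at 83.4 CPM in CAG_mRFP and 6.77 in Hes5_GFP cells, and its part was not tested.

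The 3 members with the lowest edgeR p, Pcdh9, Cdh8 and Pcdh7, were among the 31 of 46 members that were highest in ENs. DESeq2 called all 3 lower in Hes5_GFP cells, where it called 5.63% of all genes lower. Its adjusted p was 4.3e-06 for Pcdh9, 7.9e-06 for Cdh8 and 0.00099 for Pcdh7. Pcdh9 had 40.3, 166.96, 250.2 and 138.2 CPM in CAG_mRFP cells and 11.3, 31.20, 81.35 and 60.58 CPM in Hes5_GFP cells, lower on 4 of 4 days though the ranges overlapped. Its log2 ratio was -1.76 ± 0.29 (SE, n = 4 days; edgeR adjusted p = 0.0853). Cdh8 had 26.7, 423.9, 260.1 and 284.2 against 0.0399, 30.26, 36.65 and 64.75 CPM, with a log2 ratio of -3.71 ± 0.94 (edgeR adjusted p = 0.177). Without day 1, edgeR called Cdh8, at -2.92 ± 0.37 with an adjusted p of 0.0337. Pcdh7 had 19.5, 41.9, 15.8 and 26.8 against 0.0798, 2.30, 3.03 and 3.72 CPM, with no overlap, and a log2 ratio of -4.01 ± 1.25 (edgeR adjusted p = 0.252). Cdh2 was higher in Hes5_GFP cells on 4 of 4 days, at 502.9, 697.9, 460.9 and 469.9 against 439.7, 496.5, 383.8 and 367.9 CPM, with a log2 ratio of 0.33 ± 0.14 (edgeR adjusted p = 0.372).

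Within RGCs, over days 1, 3 and 4, edgeR called 0 of 27 members and 0% of 10405 genes, with 2 members and 2.04% of all genes at an unadjusted p under 0.05. DESeq2 called 1 member higher, Pcdhga4, where it called 1.13% of all genes higher and 0.0961% lower. Pcdh18 had 103.8, 32.6 and 19.99 CPM in CAG_mRFP RGCs and 207.5, 95.7 and 82.6 CPM in Hes5_GFP RGCs, higher on 3 of 3 days with overlapping ranges. Its log2 ratio was 1.53 ± 0.51 (edgeR adjusted p = 0.999). Pcdhga4, named after its values were seen, was at 0 in CAG_mRFP RGCs on all 3 days and at 65.5, 7.36 and 5.90 CPM in Hes5_GFP RGCs. Only 26 of all 1115 cells had a Pcdhga4 read, and 66.8% of its exon bases lie in another gene on the same strand. Cdh2 had 405.1, 261.03 and 512.8 against 552.8, 483.2 and 547.2 CPM, with a log2 ratio of 0.48 ± 0.27 (edgeR adjusted p = 0.999). The CAG_mRFP RGCs numbered 13, 39 and 16 on the 3 days, and their median depth of 200024 counts compares with 260412 in Hes5_GFP RGCs.

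In IPCs and in ENs only days 3 and 4 had at least 10 cells of each group, which leaves 1 residual degree of freedom. In IPCs edgeR called 0 of 32 members and 0% of 9903 genes, with 2 members and 2.78% of all genes at an unadjusted p under 0.05. DESeq2 called 1 member higher and 2 lower there, against 2.28% and 2.05% of all genes. In ENs edgeR called 0 of 39 members and 0% of 10020 genes, with no member and 3.18% of all genes at an unadjusted p under 0.05. DESeq2 called 1 member higher and 5 lower, against 3.23% and 4.63% of all genes. Cdh8 in ENs had 394.4 and 357.1 CPM in CAG_mRFP and 164.5 and 524.5 CPM in Hes5_GFP cells, in opposite order on the 2 days. Pcdh18 in ENs had 52.5 and 55.01 against 15.6 and 8.29 CPM, with a log2 ratio of -2.24 ± 1.03 (edgeR adjusted p = 0.9999). It was among the members that DESeq2 called lower in ENs, at a DESeq2 adjusted p of 0.0086. The difference of the group effect between classes was tested with an interaction term, and edgeR called 0 of 46 members between ENs and RGCs, 0 of 46 between ENs and IPCs and 0 of 40 between IPCs and RGCs, with 5, 2 and 1 members at an unadjusted p under 0.05, where 4.79%, 3.84% and 3.44% of all genes were.

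**Figure D5:**
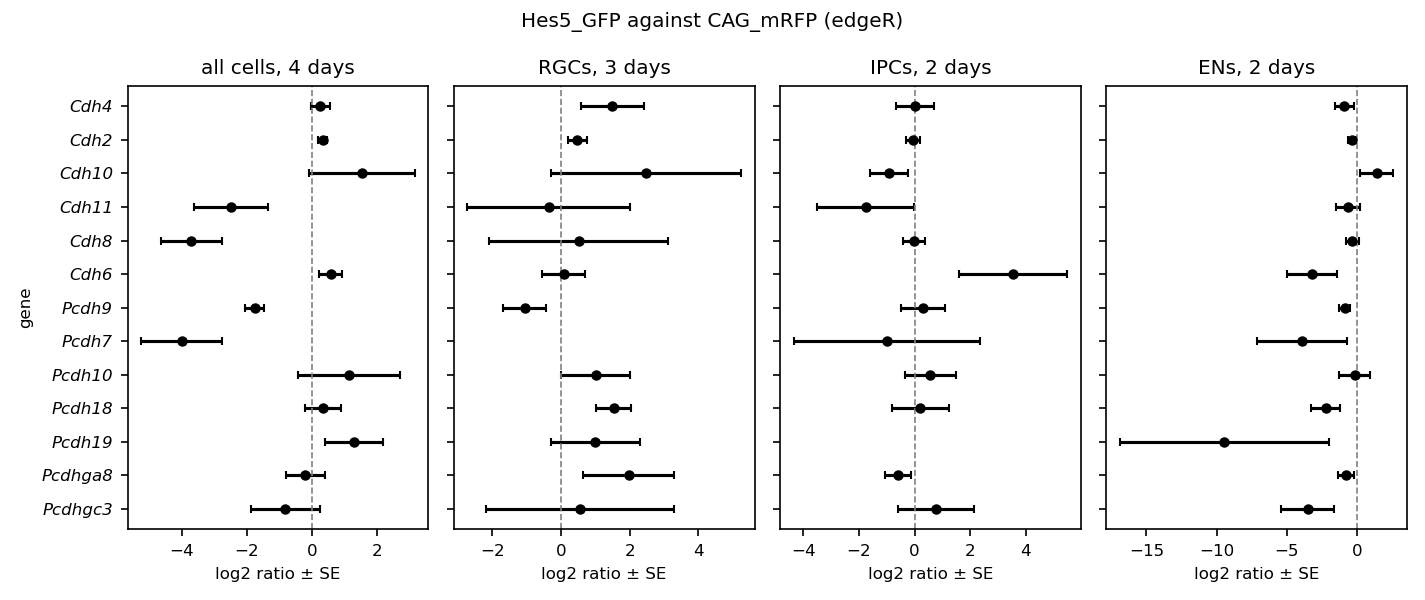
Log2 ratio of Hes5_GFP over CAG_mRFP (edgeR, bars 1 SE) of the named members in all cells, RGCs, IPCs and ENs; a missing point is a member below 5 CPM in both groups, and the Pcdh19 point in ENs rests on a group at 0 and is no bound. Cdh8, Pcdh7 and Pcdh9 lie below 0 over all cells, at -3.71, -4.01 and -1.76, while no member passed edgeR's test in any of the 4 comparisons.

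Between phases of the cell cycle, Hes5_GFP RGCs called G2M by the authors were compared with those called G1 over days 2, 3 and 4. Radial glia divide at the ventricular surface, beside the junction belt. With edgeR, 0 of 24 members and 0% of 10346 genes were called, with 2 members and 2.92% of all genes at an unadjusted p under 0.05. Since this fit called no gene at all, its 0 members cannot show that the members do not differ between phases. Without day 2, with plate batch as the unit or without cells under 50000 counts, edgeR did call genes, but still 0 members. DESeq2 called 1 member higher in G2M, Pcdh19, where it called 1.11% of all genes higher and 0.290% lower. Pcdh19 had 0, 32.6 and 0.528 CPM in G1 and 34.5, 34.2 and 29.1 CPM in G2M, with a log2 ratio of 4.89 ± 2.52 (edgeR adjusted p = 0.936). Day 2 had 7 G1 cells. Cdh2 had 65.4, 478.5 and 592.3 CPM in G1 and 1057, 486.3 and 509.7 CPM in G2M, and its log2 ratio of 1.07 ± 0.98 turned to -0.10 without day 2.

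Genes that work with cadherins were taken from 6 lists, and no listed gene passed edgeR's test in the 5 comparisons. Over all cells an unadjusted p under 0.05 was found for 6 of 19 catenins and cytoplasmic partners, 2 of 7 large atypical cadherins, 2 of 5 proteases and repressors, 2 of 10 regulators of protocadherin promoters, 0 of 2 nectins and 0 of 2 calsyntenins, against 13.6% of all genes, and in RGCs for none in any list, against 2.04%. DESeq2 calls were not tallied for these lists. Of 22 catenins and cytoplasmic partners 19 were past 5 CPM, and 9 of these were highest in RGCs, 3 in IPCs and 7 in ENs. Beta-catenin (Ctnnb1), the link from the cadherin tail to alpha-catenin, was at 678.3, 974 and 538.4 CPM in RGCs, IPCs and ENs. Epithelial alpha-catenin (Ctnna1) was at 415.5, 318.5 and 154.1 CPM and its neuronal counterpart Ctnna2 at 38.1, 59.8 and 219.6 CPM, and for each the EN days overlapped no RGC day. Ctnna2 is named after its values were seen. Cyfip2, a WAVE complex subunit that delta protocadherins can engage, was at 97.7, 248.9 and 219.4 CPM.

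Of the nectins, the adhesion receptors beside cadherins in adherens junctions, Nectin3 was at 68.7, 24.1 and 2.49 CPM in RGCs, IPCs and ENs and Nectin2 at 31.6, 40.1 and 28.8. Nectin1 was below 5 CPM in every class. Of the large atypical cadherins, Fat4 was at 131.6, 16.2 and 44.1 CPM, Fat1 at 85.3, 62.9 and 7.41 and the planar polarity cadherin Celsr2 at 34.7, 35.7 and 70.2. The sheddase Adam10, which cleaves Cdh2, was at 136.9, 129.8 and 137.1 CPM. Zeb2, a repressor of cadherin genes, was at 73.9, 39.4 and 266.9 CPM and was lower in Hes5_GFP cells on 4 of 4 days, at a log2 ratio of -1.81 ± 0.32 (edgeR adjusted p = 0.0973). The cohesin subunits Smc3 and Smc1a, part of the machinery of protocadherin promoter choice, were at 403.7, 346.2 and 220.5 CPM and at 329.5, 395.5 and 207.1 CPM. Their loader Nipbl was at 103.9, 88.8 and 134.4 CPM. Of the calsyntenins, Clstn1 was at 48.8, 14.2 and 24.2 CPM, Clstn3 at 16.2, 5.69 and 25.2, and Clstn2 below 5 CPM in every class.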

How the data were processed

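Single-cell libraries of 1115 sorted cells were analysed. The count table, deposited by the authors, holds whole numbers per gene and cell. Of 3252757 nonzero entries with a rebuilt count under 200, 2.67% were not whole in the authors' normalized table (tolerance 0.01), so some counts had been rounded. That table, deposited as natural log of 1 plus counts per 10000 of the cell, served as an alternative only. Mitochondrial content was deposited as a fraction and was used to describe cells. Classes, clusters and phases are those of the authors' cell table. HISAT2, Seurat 2 and mm10 are named per the submitters' processing notes. The gene annotation and the counting tool are not given in the sources used.

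No cell was removed and no doublet caller was run, since wells held single sorted cells. No 2 cells had identical values. Counts were summed per class, cluster or group and sort day (at least 10 cells, 5 per phase) and divided by total counts. A ratio used log2 with a prior of 1 CPM. Intervals on shares are exact (Clopper-Pearson, 95%) and cover counting error only, since reads are not molecules. Exon lengths came from GENCODE M21. EdgeR 4.0.16 (R 4.3.3) tested genes with at least 5 CPM in a group, with total counts as library size, sort day as a block and Benjamini-Hochberg adjustment over all genes tested. DESeq2 1.42.0 was an alternative. Only the edgeR fit was run on simulated data. Groups are paired by the shared sort date: same-day deviations correlated at 0.130 to 0.369 over all cells, 0.0840 to 0.151 in RGCs and 0.0971 to 0.152 between phases. On days 3 and 4 a plate, as read from the sample titles, held cells of mostly 1 group, so plate and group can hardly be told apart.

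The members and gene lists were chosen with earlier results of these data known. Members are named with values when they reached 20 CPM in a class and a read in 10% of its cells, or passed a test. Cdh2 and Cdh4 are always named. Partner genes are named when past a test or among the 3 most abundant of a list. A gene that met this rule is not reported here. Of the 59 members, 17 had an entry among the RefSeq promoter windows. The few others named are marked in the text.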

Additional observations from a re-analysis of the deposited data

Results flagged for a closer look

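For the 13 named members, the levels of 4 sort days were compared in 52 sets (RGCs, IPCs and each sort group), and a day was singled out when its gap to the nearest day exceeded Dixon's 95% critical share of the range. Chance singles out about 1 in 20 sets, and 6 were. Cdh10 in RGCs stood at 131.1 CPM on day 2 against 12.7 to 28.2 on the other days, where a single cell held 38.6% of the Cdh10 reads in RGCs. Pcdh18 stood at 91.7 CPM in IPCs on day 2 and at 467.3 CPM in CAG_mRFP cells of the same day. A single cell held 28.4% of the Pcdh18 reads in IPCs. Pcdh9 in IPCs stood at 66.2 CPM on day 3 against 0 to 9.73. Pcdhgc3 stood at 46.9 CPM in RGCs and at 68.4 CPM in Hes5_GFP cells, both on day 1.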

How the results depend on the processing

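The counts of members called stayed at 0 under edgeR with TMM factors, without the filter on low values, with plate batch as the unit, and without cluster 7, cells under 50000 counts or AY036118, a transcript that took 2.68% of all counts. DESeq2 called 6 of 35 members over all cells, 1 of 27 in RGCs, 3 of 32 in IPCs, 6 of 39 in ENs and 1 of 24 between phases, against 11.1%, 1.23%, 4.33%, 7.86% and 1.40% of all genes. Leaving out a day gave 0 to 1 over all cells, and 0 in RGCs and between phases. In IPCs and ENs it left no residual degrees of freedom and was not run. The days pair the groups by a shared sort date, and without the day as a replicate block 0 members were called in each of the 5 comparisons. Cdh2 between phases reversed to -0.11 with plate batch as the unit and to -0.11 without cells under 50000 counts, and lay between -0.097 and 2.01 when a day was left out, the lowest without day 2.

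The members highest in IPCs fell from 8 to 0, and those highest in ENs from 31 to 17, with the authors' normalized values, where fewer members pass 5 CPM. With a minimum of 20 CPM they numbered 0 and 14. The shares of all genes highest in each class were not counted in these 2 settings. Whether the members still differ from all genes there cannot be read from these counts. The median EN against RGC log2 ratio of classical cadherins was -0.076 in Hes5_GFP cells, 1.87 in CAG_mRFP cells, 0.035 with the authors' normalized values, 0.41 with the 20 CPM minimum and 0.081 to 0.71 without a day. That of the other protocadherins was 0.43 as a mean of per-cell CPM, -0.76 with the authors' normalized values, 0.38 with the 20 CPM minimum and 0.56 to 1.53 without a day. Named members with the highest share of cells in IPCs fell from 2 to 1 on thinning to 20000, 50000 or 100000 reads. Among alternatives chosen after seeing the data, members at least 2-fold higher in ENs with no overlap between days numbered 6 of 41 in Hes5_GFP cells, against 11.26% of all genes, and 13 to 21 of 40 to 46 without a day, against 11.04% to 14.31%. Those higher in RGCs numbered 4 of 41 in Hes5_GFP cells, against 18.46%, and 2 to 4 without a day, against 16.64% to 18.11%. Without day 2 they were 21 and 4 of 40, against 14.31% and 18.09%. The causes of these changes were not tested. Of the 59 members, 13 did not reach 5 CPM in any class.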
